A study of Mus musculus with 7 samples.

Results

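The genes described here encode cytosolic sensors of RNA and DNA and the proteins closest to them in the signalling chain. They were chosen by name: Ddx58, Ifih1, Dhx58, Mavs, Trim25, Zbp1, Aim2, Tbk1 and Trex1. Of these 9 genes, 8 were measured among 19505 named genes, each by 1 probe set. The expression of Trex1, which encodes an exonuclease that degrades cytosolic DNA, was not analysed here. The samples were type 1 conventional dendritic cells (cDC1), which cross-present antigen to CD8 T cells, sorted from spleen. There were 3 arrays from wild-type mice (WT) and 4 from mice with CD11c-Cre and a floxed OPA1 gene (KO). All mice were C57BL/6 and carried a B16-OVA tumor, a melanoma line that expresses ovalbumin, so WT and KO share the tumor. CD11c is not restricted to cDC1, so the Cre can act in other CD11c-expressing cells as well. The labels do not say whether WT mice carried the Cre, whether mice were pooled, or whether each array stands for its own mouse. The p-values given here therefore reflect array-to-array spread, part of which may be technical. The comparison asks how the loss of OPA1, a GTPase needed to fuse inner mitochondrial membranes, affects the transcriptome of splenic cDC1.

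RIG-I (gene Ddx58), MDA5 (Ifih1) and LGP2 (Dhx58) are RNA helicases that bind foreign or misplaced double-stranded RNA in the cytosol. RIG-I and MDA5 signal through MAVS on the outer mitochondrial membrane, which recruits the kinase TBK1 and leads to type I interferon; the ubiquitin ligase TRIM25 promotes RIG-I signalling. AIM2 assembles an inflammasome on cytosolic DNA, and ZBP1 binds left-handed nucleic acid and can start necroptosis. Several of these genes are themselves induced by interferon, through a promoter element called the interferon-stimulated response element (ISRE).

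The promoters are shown because several members differed together between arrays. RefSeq promoter windows of 300 bases (GRCm38.p6; 250 before the gene start and 50 after it) were found for 7 of the 9 genes. The ISRE core was searched on both strands as GAAANN followed by GAAA, which reads TTTCNN followed by TTTC on the other strand. It occurred in 2 of the 7 genes, Ddx58 and Ifih1, against 3.43% of 32817 promoter windows of the same length. Dhx58 and Zbp1 had no window and were not searched, and the 7 genes include Trex1, whose expression was not analysed. Trim25 held the shorter form GAAANNGAA, which was chosen after the promoters were seen, is contained in the core and occurs in 8.55% of windows. In the list of other interferon-induced effectors given further on, 13 of 22 genes with a window held the core, among them Isg15 and Ifit3. The gamma-activated site TTCNNNGAA occurred in 0 of the 7 genes and in 8.29% of all windows. A single match per gene is printed 5′ to 3′ on the gene's strand, with its matching bases in capitals. Isg15 also held core matches at window bases 173 to 182 and 185 to 194. These overlap the printed match and stand partly in lower case in its stretch. Ifit3 also held a core match at window bases 95 to 104, which is not printed. A match is a run of letters, not a measured binding site.
Ddx58, chr4:40239804-40239833, minus strand, window bases 253 to 262: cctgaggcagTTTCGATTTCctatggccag
Ifih1, chr2:62646206-62646233, minus strand, window bases 283 to 292: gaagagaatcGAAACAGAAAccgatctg
Trim25, chr11:88999384-88999412, plus strand, window bases 242 to 250: gcccctcctgTTCAGTTTCgattccttcc
Isg15, chr4:156200871-156200900, minus strand, window bases 179 to 188: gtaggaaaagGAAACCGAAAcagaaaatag
Ifit3, chr19:34583397-34583426, plus strand, window bases 129 to 138: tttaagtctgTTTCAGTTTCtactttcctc
In Ddx58 and Ifih1 the match lay in the 50 bases after the gene start, whereas in Trim25, Isg15 and Ifit3 it lay in the 250 bases before it.

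The arrays differed in cell type markers, and these values stand beside every result below. All values are log2 intensities, and a difference of 1 is a factor of 2 on the array's scale. Of 19 measured melanocyte lineage genes, 18 had a lower mean in KO; the mean level of the list was 11.32 on WT 1, 11.59 on WT 2 and between 7.58 and 8.13 on the KO arrays, and on WT 3 it stood 1.11 above the KO mean. Tyr, which encodes tyrosinase, lay between 6.20 and 7.15 on the KO arrays, where the median of negative control probe sets was 6.49 to 6.88. Of 15 cDC1 markers all 15 had a higher mean in KO; the list's mean level was 11.03, 9.61 and 11.88 on WT 1, WT 2 and WT 3 and 11.89 to 11.94 in KO. The defining markers Clec9a and Xcr1 read 7.29 and 7.97 on WT 2, where the label says cDC1. Cd8a, also a defining marker, read 7.89 on WT 1 and 6.96 on WT 2, against 12.11 on WT 3 and 11.95 to 12.12 in KO. The part of these differences in the results on the sensors was not tested. Opa1 was lower in KO by a difference of -1.22 (SE 0.36; limma, adjusted p = 0.223), with KO 4 (8.24) above WT 1 (8.14). Array medians over all rows lay between 7.84 and 7.96, and the number of arrays limits the precision.

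No sensor gene passed the test of KO against WT over all genes, and neither did any other gene: 0 of 19505 had a limma adjusted p under 0.05 (background 0%). With p unadjusted, 3820 genes were under 0.05, 2068 lower and 1752 higher in KO. Centring each array on its median over the named genes turned that split to 1770 lower and 2632 higher. Among the 8 sensors, 6 had a lower and 2 a higher mean in KO, with a median difference of -0.36 where the median over all genes was 0.06 and 40.1% of genes had a lower mean. An unadjusted p under 0.05 was found for 3 lower members, Ddx58, Ifih1 and Zbp1, against 10.6% of all genes, and for 1 higher member, Aim2, against 8.98%. In Ddx58, Ifih1 and Trim25 every KO array lay below every WT array, as in 5.92% of all genes; 0 members had every KO array above every WT array, as did 7.85% of genes.

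**Figure D1:**
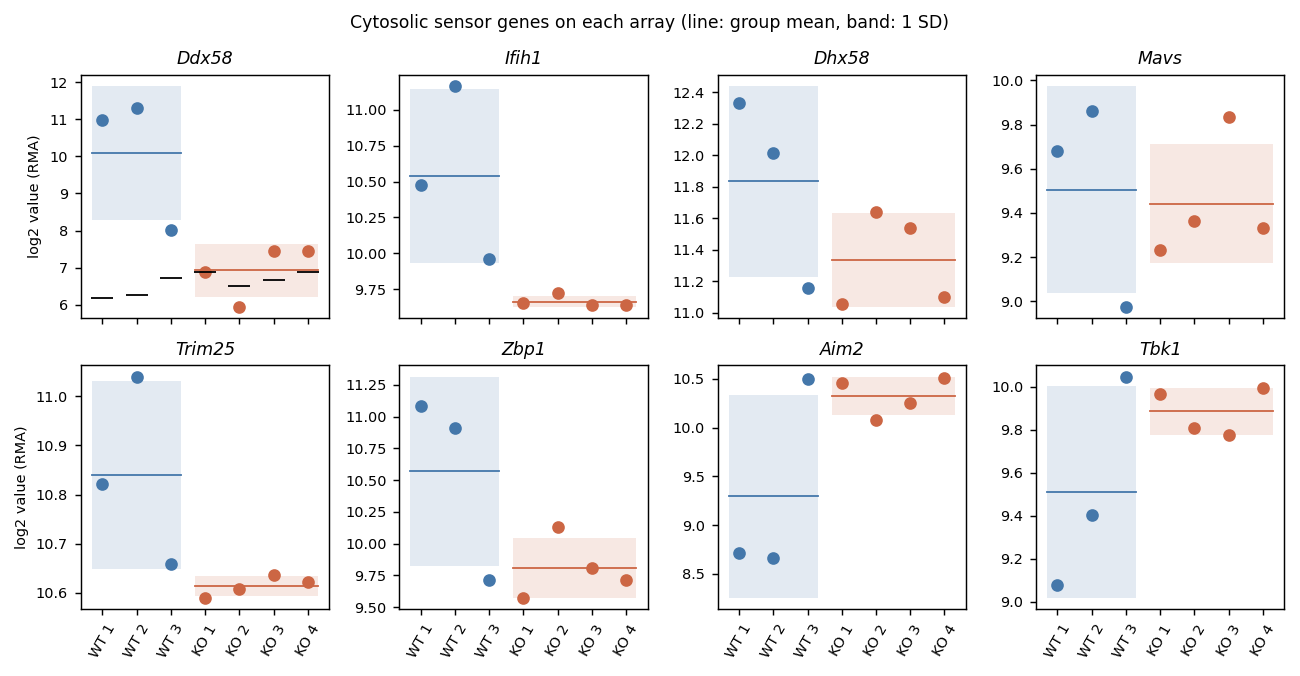
Log2 value of each sensor gene (vertical axis) on the 3 WT arrays (blue) and the 4 KO arrays (orange), with the group mean as a line and 1 SD as a band; black dashes in the Ddx58 panel are each array's median of negative control probe sets. The scale differs between panels. WT 1 and WT 2 lie on the same side of the other 5 arrays in every panel except Mavs.

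Among the RNA helicases, Ddx58 had the largest difference of the 8 members. Ddx58 (probe set TC0400002434.mm.2) read 10.97, 11.30 and 8.01 on WT 1, WT 2 and WT 3 and 6.87, 5.93, 7.45 and 7.45 on KO 1 to KO 4. WT 1 and WT 2 were far above all others, WT 3 was above every KO array, and KO 1 and KO 2 did not exceed the median of negative controls on their own arrays (6.88 and 6.49). The WT mean was 10.09 ± 1.82 (SD, n = 3) and the KO mean 6.93 ± 0.72 (SD, n = 4), a difference of -3.17 (SE 0.78) that did not pass (limma, adjusted p = 0.223). Only 2 of the 4 KO arrays were above the negative controls, so the size of this difference, here and in every value of Ddx58 against KO below, is limited by background and is not exact. As these are bulk samples, fewer cells that express a gene and less RNA per cell cannot be told apart.

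Ifih1 (TC0200003630.mm.2) read 10.48, 11.17 and 9.96 on WT 1 to WT 3 and 9.65, 9.72, 9.64 and 9.64 on KO 1 to KO 4. The KO arrays lay within 0.08 of one another, all below WT 3, and WT 2 was the highest array. The means were 10.54 ± 0.61 (SD, n = 3) and 9.66 ± 0.04 (SD, n = 4), a difference of -0.87 (SE 0.25; limma, adjusted p = 0.223). Dhx58 (TC1100003779.mm.2), whose product modulates the other helicases and lacks their signalling domains, read 12.33, 12.02 and 11.16 in WT and 11.05, 11.64, 11.54 and 11.10 in KO. For Dhx58 the groups overlapped, with WT 3 among the lower KO arrays and WT 1 and WT 2 above all others. Its means were 11.83 ± 0.61 (SD, n = 3) and 11.33 ± 0.30 (SD, n = 4), a difference of -0.50 (SE 0.28; limma, adjusted p = 0.338).

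The genes that carry the signal onward differed less and not in 1 direction. Mavs (TC0200002012.mm.2), the mitochondrial adaptor, read 9.68, 9.86 and 8.97 in WT and 9.23, 9.36, 9.84 and 9.33 in KO. WT 3 was the lowest array and KO 3 reached the level of WT 2, so the groups overlapped. The means were 9.51 ± 0.47 (SD, n = 3) and 9.44 ± 0.27 (SD, n = 4), a difference of -0.06 (SE 0.24; limma, adjusted p = 0.890), and leaving out WT 1, WT 2 or KO 1 turned its direction. Trim25 (TC1100001386.mm.2) read 10.82, 11.04 and 10.66 in WT and 10.59, 10.61, 10.64 and 10.62 in KO. WT 3 stood 0.04 above the KO mean and only just above the highest KO array. The difference was -0.23 (SE 0.11; limma, adjusted p = 0.285), from 10.84 ± 0.19 (SD, n = 3) to 10.61 ± 0.02 (SD, n = 4). Tbk1 (TC1000003049.mm.2), the kinase that phosphorylates interferon regulatory factor 3, read 9.08, 9.41 and 10.05 in WT and 9.97, 9.81, 9.78 and 9.99 in KO. It was lowest on WT 1 and WT 2 and highest on WT 3, so the groups overlapped, and the difference was 0.38 (SE 0.21; limma, adjusted p = 0.339). Its means were 9.51 ± 0.49 (SD, n = 3) and 9.89 ± 0.11 (SD, n = 4).

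The sensors tied to cell death lay on opposite sides. Zbp1 (TC0200005290.mm.2) read 11.08, 10.91 and 9.71 in WT and 9.57, 10.13, 9.81 and 9.72 in KO. WT 1 and WT 2 were the highest arrays, and WT 3 lay among the KO arrays. The means were 10.57 ± 0.75 (SD, n = 3) and 9.81 ± 0.24 (SD, n = 4), a difference of -0.76 (SE 0.32; limma, adjusted p = 0.249). Aim2 (TC0100001631.mm.2) showed the reverse order, with 8.72, 8.67 and 10.50 in WT and 10.46, 10.07, 10.25 and 10.51 in KO. WT 1 and WT 2 were the lowest arrays, and WT 3 was again within the range of the KO arrays. The means were 9.29 ± 1.04 (SD, n = 3) and 10.32 ± 0.20 (SD, n = 4), a difference of 1.03 (SE 0.42; limma, adjusted p = 0.245).

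WT 1 and WT 2 were thus both above the other 5 arrays for 5 of the 8 members, Ddx58, Ifih1, Dhx58, Trim25 and Zbp1, and both below them for Aim2 and Tbk1. Over all genes these shares were 19.4% and 22%. Set against the mean of the 4 KO arrays, WT 1 stood 4.05 higher for Ddx58, 1.27 higher for Zbp1 and 0.82 higher for Ifih1. WT 2 stood 4.38 higher for Ddx58, 1.10 higher for Zbp1 and 1.51 higher for Ifih1. Aim2 was below the KO mean by a difference of -1.61 on WT 1 and -1.66 on WT 2, and Tbk1 by -0.81 and -0.48. The melanocyte list stood 3.42 and 3.70 above its KO mean on those arrays, and the cDC1 list stood at -0.88 and -2.30.

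**Figure D2:**
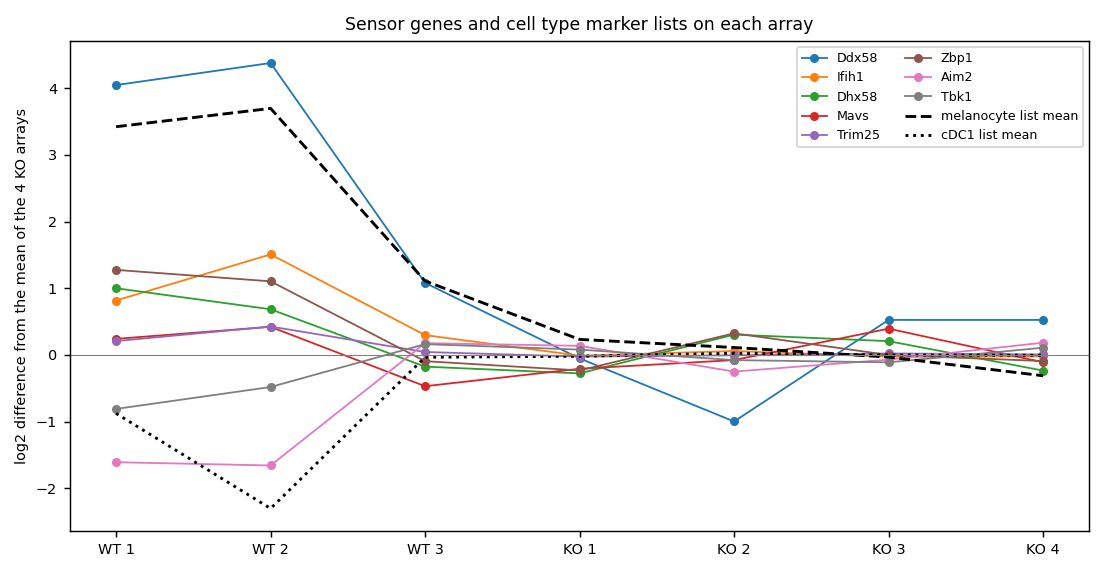
Difference of each sensor gene from its own mean over the 4 KO arrays, in log2 units, on each of the 7 arrays (coloured points joined by lines), with the mean of 19 melanocyte lineage genes (dashed) and of 15 cDC1 markers (dotted) on the same scale. Ddx58, Ifih1, Trim25 and the melanocyte list lie above 0 on all 3 WT arrays, the distance of Ddx58 being limited by background on KO 1 and KO 2. Aim2, Tbk1 and the cDC1 list lie below 0 on WT 1 and WT 2.

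On WT 3 the cDC1 list stood at -0.03 from the KO mean, though its melanocyte list was higher, as given above. On WT 3, 4 of the 8 members lay above all KO arrays, against 18.1% of all genes: Ddx58 by 1.08 over the KO mean, Ifih1 by 0.30, Tbk1 by 0.16 and Trim25 by 0.04. Mavs lay below all KO arrays, at -0.47 from their mean, as 24.2% of genes did. Dhx58 (-0.18), Zbp1 (-0.09) and Aim2 (0.18) lay within the range of the KO arrays. With WT 3 as the lone WT array, assumed to vary like the KO arrays, 0 members and 0 of all genes passed (limma, background 0%; 1154 genes at an unadjusted p under 0.05). In that fit Dhx58, Zbp1 and Mavs were higher in KO, and Aim2 and Tbk1 lower, the opposite of their direction over all 7 arrays.

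Without WT 3, the comparison of WT 1 and WT 2 with the 4 KO arrays called 6 of the 8 members, where 25.3% of all genes were called. Ddx58 fell by 4.21 on the log2 scale (limma, adjusted p = 0.000101), a size limited by background on KO 1 and KO 2. Zbp1 fell by 1.19 (adjusted p = 0.000889), Ifih1 by 1.16 (adjusted p = 0.00166) and Dhx58 by 0.84 (adjusted p = 0.0129). Aim2 rose by 1.63 (limma, adjusted p = 8.07e-05) and Tbk1 by 0.65 (adjusted p = 0.00809). Trim25 (-0.32) and Mavs (-0.33) did not pass. Array weights, which give less weight to arrays with larger residuals, called the same number of members, 6, and 22.9% of all genes. WT 1 and WT 2 correlated at 0.98 with each other and at 0.95 and 0.94 with WT 3. With the KO arrays, WT 3 correlated at 0.99, as these did with one another, WT 1 at 0.95 and WT 2 at 0.92 to 0.93. The fit without WT 3 thus leaves out the WT array most like the KO arrays. The weighted fit is therefore not independent of the omission of WT 3, and the weights of single arrays were not examined.

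**Figure D3:**
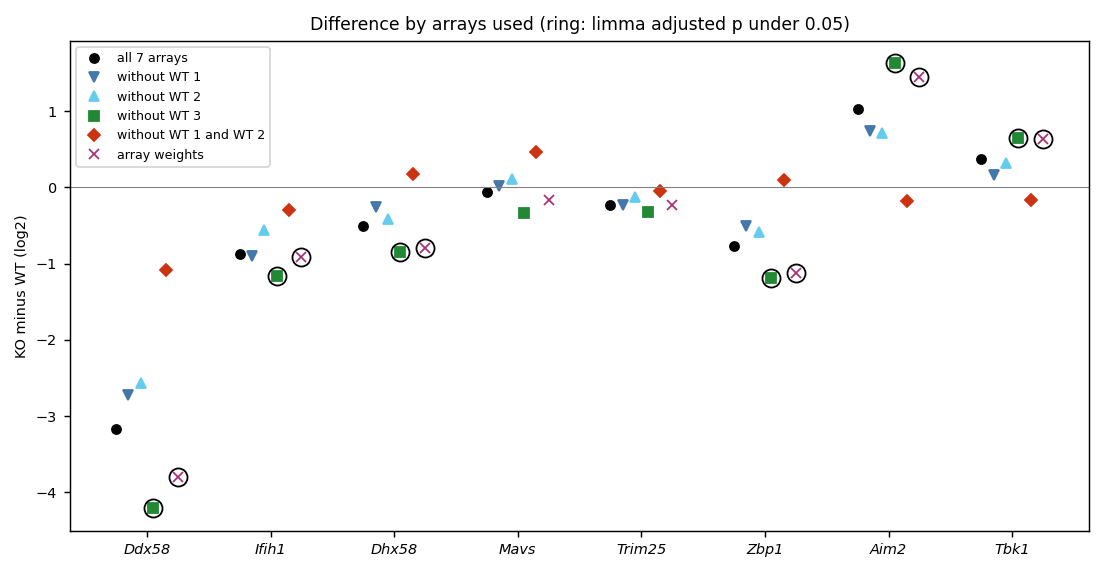
KO minus WT difference in log2 units (vertical axis) for each sensor gene with all 7 arrays and with WT arrays left out or arrays weighted (symbols); a ring marks a limma adjusted p under 0.05. Ddx58, Ifih1 and Trim25 stay below 0 in each setting shown, while Dhx58, Mavs, Zbp1, Aim2 and Tbk1 cross 0 when WT 1 and WT 2 are left out.

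The other genes of nucleic acid sensing were described from lists, with KO minus WT differences over all 7 arrays; none of the listed genes passed over all genes (limma, smallest adjusted p = 0.223). The list of other interferon-induced RNA effectors had the lowest median of the 8 lists. Of 29 measured, 28 had a lower mean in KO, with a median of -0.93 against 0.06 over all genes; 20 were lower at an unadjusted p under 0.05 (10.6% of all genes), and in 12 the groups did not overlap (5.92%). Isg15, a ubiquitin-like modifier, read 9.77, 10.52 and 8.67 in WT and 8.22, 8.36, 8.26 and 8.20 in KO. Ifit2, which binds RNA, read 8.74, 10.04 and 7.61 in WT and 6.27, 7.03, 6.68 and 7.27 in KO. On KO 1 and KO 3 Ifit2 lay below and at the median of negative controls (6.88 and 6.67). The size of its difference is therefore limited by background. For both genes every WT array lay above every KO array, WT 2 being the highest. Oasl1, an OAS family member, differed by -1.60 and Ifit3 by -1.40, with Ifit3 below the median of negative controls on KO 4 (6.75 against 6.88). WT 3 lay above all KO arrays in 12 of the 29, against 18.1% of all genes, and stood 0.16 above the KO mean at the median, against -0.02 over all genes.

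Of 26 measured genes of DNA sensing and the STING axis, 18 had a lower mean in KO (40.1% of all genes), with a median of -0.14. At an unadjusted p under 0.05, 5 were lower, against 10.6% of all genes, and 0 higher, against 8.98%. Xrcc5, the Ku80 subunit that binds DNA ends, read 9.56, 10.55 and 7.60 in WT and 6.95, 6.78, 6.75 and 7.01 in KO, with no overlap. Its KO values lay close to the medians of negative controls on those arrays (6.88, 6.49, 6.67 and 6.88), so the size of its difference is limited by background. Mndal (-0.97), Ifi204 (-0.85) and Ifi211 (-1.08), of the IFI200 family to which AIM2 is related, also had lower means in KO; family members are similar in sequence, and their probe sets may share signal. These 3 genes differed in the direction opposite to Aim2. Of 29 regulators and cofactors of the RNA helicases, 14 were lower and 15 higher (median 0.03). Ddx1, another RNA helicase, differed by -0.91, Zc3hav1, an antiviral RNA-binding protein, by -0.68, Itch, a ubiquitin ligase that acts on MAVS, by 0.54 and Nlrx1, a mitochondrial inhibitor of MAVS, by 0.29.

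Around Tbk1, 10 of 15 kinase partners and interferon regulatory factors were lower and 5 higher (median -0.04). Irf7, the interferon-induced regulatory factor, read 12.36, 12.03 and 10.92 in WT and 10.66, 11.30, 11.10 and 10.80 in KO, with WT 3 among the KO arrays. Ikbke, the kinase related to Tbk1, differed by -0.59, Irf3 by 0.26 and Ikbkg by 0.21. Of 17 enzymes that clear or edit nucleic acids, 7 were lower and 10 higher (median 0.08). Dnase1l3, a secreted DNase of dendritic cells, read 8.29, 6.72 and 11.86 in WT and 11.74, 11.35, 11.63 and 11.92 in KO, the same order as Aim2 with WT 1 and WT 2 lowest. Mov10, an RNA helicase, differed by -1.41, Pld3, an exonuclease of the endolysosome, by -0.93 and Rnaseh2c, a subunit of RNase H2, by -0.36.

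Among 12 cell death partners of ZBP1 and AIM2, 6 were lower and 6 higher (median -0.03). Mlkl, the executor of necroptosis downstream of ZBP1, read 11.14, 11.53 and 8.61 in WT and 7.59, 7.81, 7.93 and 7.58 in KO, a difference of -2.70 with no overlap. Ninj1, which ruptures the plasma membrane, differed by -0.98, Il1b by -0.36 and Gsdmd, the pore-forming substrate of inflammasome caspases, by 0.29. Of 17 genes of mitochondrial nucleic acid handling, 11 were lower and 6 higher (median -0.10). Bak1, a pore-forming BCL2 family protein of the outer membrane, differed by -0.35, Vdac1, an outer membrane channel, by -1.11, Vdac3 by -0.37 and Slirp, which stabilises mitochondrial mRNA, by -0.34. Of 18 type I and III interferon genes, 8 were lower and 10 higher (median 0.02), and 1, Ifna16 (0.35), was higher at an unadjusted p under 0.05, where 8.98% of all genes were. Ifnab differed by 0.17, Ifna5 by 0.15 and Ifna12 by 0.13. Ifna12 (5.38 to 5.81) lay below the median of negative controls (6.19 to 6.88) on every array. Interferon alpha genes are near-identical copies, so their separate values are uncertain.

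**Figure D4:**
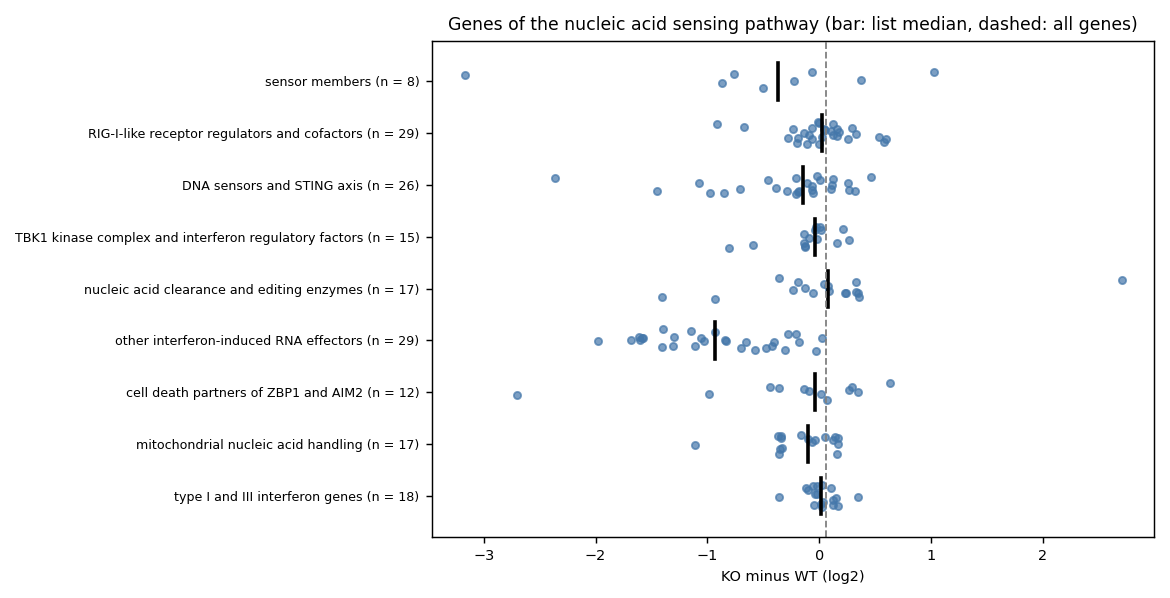
KO minus WT difference in log2 units (horizontal axis) for each measured gene (points, spread vertically for sight) of the sensor genes and 8 lists of the nucleic acid sensing pathway, with each list's median as a bar and the median of all 19505 genes, 0.06, as a dashed line. The interferon-induced effectors have a median of -0.93, with 28 of 29 below 0, while the other lists have medians between -0.14 and 0.08.

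Within KO, KO 2 and KO 3 were above KO 1 and KO 4 for Dhx58, Mavs and Zbp1 and below them for Aim2 and Tbk1, a pattern picked after the values were seen. Over all genes, KO 2 and KO 3 were both above KO 1 and KO 4 in 24% and both below in 19%. Sting1, the adaptor of cytosolic DNA sensing, read 10.08, 10.82, 10.52 and 10.14 on KO 1 to KO 4, and Opa1 read 7.70, 7.10, 6.85 and 8.24 on the same arrays. KO 2 and KO 3 thus had the lowest Opa1, the higher Dhx58, Zbp1, Mavs and Sting1 and the lower Aim2 and Tbk1 of the KO arrays. Ddx58, Ifih1 and Trim25 were not split this way. Marker lists were also compared, as the median of KO 2 and KO 3 minus KO 1 and KO 4. It was -0.45 for T and NK cells, -0.42 for neutrophils, 0.01 for cDC1 and 0.12 for melanocytes. The median of negative control probe sets was also lower on KO 2 and KO 3, with 6.88, 6.49, 6.67 and 6.88 on KO 1 to KO 4. The part of markers and negative controls in the pattern was not tested. With 4 arrays no test was made.

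Among the members themselves, profiles over the 7 arrays were compared by the root mean square of the difference after each gene's own mean was subtracted, in log2 units. Dhx58 and Zbp1 were the closest pair (0.18) and Ddx58 and Aim2 the farthest (2.61). Provisional symbols (Gm with a number, or ending in Rik) were left out of the search for nearest genes. It covered 13631 other named genes whose mean over the 7 arrays lay above the highest median of negative controls (6.88). The nearest to Zbp1 were Irf7 (0.08), Vangl2 (0.09) and Pimreg (0.09). Nearest to Ifih1 were Fam162a (0.05), Higd1a (0.05) and Tpm1 (0.06), and to Aim2 Gsap (0.05), Ptgis (0.11) and Tcf7l2 (0.11). The nearest to Ddx58, Aebp1 (0.40), Itga9 (0.41) and Rtp4 (0.41), were less close, beside a range of 5.37 over the arrays for Ddx58 itself. Rtp4 read 6.32, 5.22, 6.37 and 6.40 on KO 1 to KO 4, below each array's median of negative controls. Aebp1 lay below that median on KO 1 and KO 2. The part of background in their likeness to Ddx58 was not tested. The measure has 7 arrays behind it, and WT 1 and WT 2 weigh most in it.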

How the data were processed

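RNA of sorted splenic cDC1 was measured on 7 whole-transcript arrays, and groups and replicate numbers come from the sample titles. The authors deposited 1 table of 28846 rows on a log2 scale, for which the submitters' processing notes name RMA and Affymetrix Expression Console 1.1; the scale was read from the values (3.68 to 14.28). RMA compresses small signals, so differences of dim genes are understated. Each symbol was represented by the probe set with the highest mean over the 7 arrays, which left 19505 genes of 19572 named probe sets.

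The test of KO against WT used lmFit and eBayes of limma (version 3.58.1, under R 4.3.3) without covariates, and p-values were adjusted by Benjamini-Hochberg over the 19505 genes, with a threshold of 0.05. The code was tested on simulated data. The members, lists, motifs and alternatives were chosen with earlier results of these data known. Named list genes are the 4 of each list with the smallest unadjusted p; nearest genes are the 3 closest to the 4 members with the widest range. Alternatives left out arrays, or changed the block, scaling, filter, variance model or probe set. Probe sets are given without coordinates, because no source used here names their genome build.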

Additional observations from a re-analysis of the deposited data

How the results depend on the processing

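Of 128 values of the 8 members under 16 alternatives, 108 kept their direction and their side of the threshold, 12 passed it and 8 changed direction. The dim filter, the trended and robust variance models and the use of every probe set left each member's difference as in the main fit. Direction could not change there, yet these values are among the 108. The replicate block repeated the differences found without the KO array whose number has no WT array. The 108 therefore overstates how far direction was tested. Leaving out 1 array at a time gave between 0 and 4931 called genes, between 0 and 6 called members, and a median member difference between -0.59 and -0.24; only the omission of WT 3 gave any call. Array weights called 4458 genes and 6 members. Without WT 1 and WT 2 together the difference was -0.18 for Aim2, 0.18 for Dhx58, 0.47 for Mavs, -0.16 for Tbk1 and 0.0935 for Zbp1. For Mavs, leaving out 1 array gave -0.33 to 0.11, with 0.02 without WT 1, 0.11 without WT 2 and 0.0047 without KO 1. The replicate block called 0 genes and 0 members, with a median member difference of -0.33 and 2488 genes at an unadjusted p under 0.05 against 3820 without the block. For samples with the same number, deviations from the group means correlated at -0.04, 0.05 and -0.02. The WT deviations largely carry the split of WT 1 and WT 2 from WT 3. These correlations therefore cannot show whether samples with the same number shared more than that number. The causes were not tested. Among the members, the depth of signal limits Ddx58 most, since its KO values lay near the negative controls.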

Other observations

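Cgas, the DNA sensor that produces the ligand of STING, and Ifnb1, the interferon beta gene, were also chosen after their values were seen. Cgas read 8.42, 8.73 and 9.11 in WT and 8.73, 9.27, 9.31 and 8.99 in KO, lowest on WT 1. Ifnb1 read 8.60 on WT 2 and between 6.77 and 7.41 on the other 6 arrays. The median of negative control probe sets on those arrays was 6.19 to 6.88, so these values lay near background. WT 2 was also the array with the highest mean of the cDC2 and macrophage lists, at 1.55 and 1.36 above their KO means, against -0.33 and 0.13 on WT 1 and 0.42 and 0.50 on WT 3. Single markers were split. Cd209a and Mgl2 were highest on WT 2, whereas Esam was lowest there, Cd4 lay below every KO array and Spic was highest on WT 3. WT 2 was the highest array for Ddx58, Ifih1, Mavs and Trim25, whereas WT 1 was the highest for Dhx58 and Zbp1.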
